A study of Mus musculus with 12 samples.

Results

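B cells that lacked STAT6 were compared with wild-type B cells when both had received interleukin 4 (IL-4). The comparison sets 3 arrays of knockout cells with IL-4 against 3 arrays of wild-type cells with IL-4, chosen by their titles as 6 of the 12 arrays of the series, and it covers every gene tested. The question it addresses is which transcripts of an IL-4-treated B cell differ once STAT6 is missing. Splenic B cells of female BALB/c mice aged 9 weeks, taken by negative selection, were in every group stimulated over 4 days with lipopolysaccharide (LPS, 2 µg/ml) plus anti-CD40 antibody at 10 µg/ml, and the medium was renewed on day 3. The wild-type IL-4 group and the STAT6 knockout IL-4 group also received IL-4 at 25 ng/ml. The wild-type and knockout control groups, 3 arrays each, had the antibody and LPS without IL-4, and their values are given where the genotype difference with IL-4 is set beside the one without it. The labels give neither the knockout allele nor whether the triplicates came from separate animals, so p-values measure the spread between these samples, which may be technical.

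IL-4 binds a receptor of IL-4Rα and the common gamma chain on B cells, and the receptor's Janus kinases, JAK1 and JAK3, phosphorylate the receptor and then STAT6. STAT6 dimers enter the nucleus and bind sites built as TTC and GAA on either side of a short spacer. In B cells this pathway is known for opening the heavy chain genes of IgG1 and IgE to class switching and for raising CD23, MHC class II and IL-4Rα itself, while SOCS family proteins feed back on the receptor.

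Signals are log2 intensities from 1-colour Agilent arrays, relative to the 75th percentile of their own array, so a level of 0 is the signal of that percentile. Levels of different probes are not compared. A difference is knockout minus wild type on the log2 scale, from limma over all 12 arrays, with p-values adjusted over the 16498 genes tested by Benjamini-Hochberg. A gene is called where the adjusted p is under 0.05 and the difference is at least 1 in size, and list members count as higher or lower from that p alone, whatever the size of the difference. Where all 3 arrays of the dimmer group failed to rise well above background, the fold is a bound ("at least"). It sets the bright group's mean over the array's lowest signal well above background, or the gene's own signal where higher. These bounds belong to the main processing and are not minima under every alternative. The smallest fitted log2 differences among the alternatives were, for example, -4.64 for Gzma, -3.98 for Pros1, 3.44 for Csf2 and -0.31 for Cdkn1c. These are smaller in size than their bounds. The same held for each of the 5 genes with the largest bounds in each direction. Of 59305 non-control spots per array 40.7% to 44.0% were well above background and none was saturated. Within a group the arrays correlated at 0.994 to 0.998 across genes, and the number of arrays limits the precision. The scanner headers place every wild-type array and knockout controls 1 and 2 on a first slide, and knockout control 3 with all knockout IL-4 arrays on a second. No slide therefore holds both IL-4 groups, and a value within a slide cannot be had. A fit with slide as a block was run beside the main one. It rests on knockout control 3 against controls 1 and 2. Its values are given for many calls they end and many log2 differences, list counts or medians they change by more than 1.5 times. They are not given in every such case, so a value printed without them may still change in that fit.

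The cells read as B cells on all 6 arrays with IL-4. All 8 B cell markers listed, among them Cd79a, Cd79b, Ms4a1, Cd22, Pax5, Cd72 and Blnk, were well above background on each of them, and the summed signal, in units of the array's 75th percentile, was 1348 to 1384 in wild-type and 1258 to 1327 in knockout cells. Of 18 T cell markers 11 were well above background on all 6 arrays, among them Cd3d, Cd3e and Cd3g, and Cd8a, Cd8b1, Bcl11b and Ptcra were so on none. The summed T cell marker signal was 143.1 to 151.2 in wild-type and 39.25 to 41.22 in knockout cells. Without Thy1, a choice made after its values were seen, it was 36.82 to 38.15 in wild-type and 39 to 40.89 in knockout cells. In bulk RNA fewer cells of a type and less RNA per cell cannot be told apart.

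Stat6 was examined first as the check of the genotype labels. Its brightest probe read 3.42, 3.38 and 3.29 on the wild-type IL-4 arrays and 1.30, 1.38 and 1.59 on the knockout IL-4 arrays, and the groups did not overlap. The difference was -1.94 ± 0.08 (SE), 3.84-fold lower, with an adjusted p of 1.84e-08. In the controls, without IL-4, it was -1.94 (adjusted p = 1.03e-06). The Stat6 signal was thus lower in every knockout array but not gone, and all 3 Stat6 probes stayed well above background on all 12 arrays. The other pair of probes, 60 bases each within the coding sequence on the forward strand of chromosome 10 (build mm9), are printed because they read separate stretches of the transcript.
Stat6 probe at chr10:127083983-127084042: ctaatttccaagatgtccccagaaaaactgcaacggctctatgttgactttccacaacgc
Stat6 probe at chr10:127095694-127095753: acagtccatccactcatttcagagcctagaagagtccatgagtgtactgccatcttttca
The first, near the start of the transcript, read -1.08, -1.07 and -1.04 in wild-type and -2.62, -2.32 and -2.07 in knockout cells with IL-4, a difference of -1.28 ± 0.16 (SE). The second, towards the 3′ part of the coding sequence, read 1.66, 1.71 and 1.60 in wild-type and -0.85, -0.64 and -0.60 in knockout cells, a difference of -2.36 ± 0.11 (SE). Since the allele is not given, it is not known whether any of these stretches lies in the deleted part.

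With IL-4 in both genotypes, 1597 genes (9.68% of the 16498 tested) were called, 764 higher (4.63%) and 833 lower (5.05%) in knockout cells. Without IL-4 the same test called 194 genes (1.18%), 138 higher (0.836%) and 56 lower (0.339%), on arrays that none of the IL-4 groups shares. That smaller count depended on single arrays. It was 73 (32 higher, 41 lower) without wild-type control 3 and 305 without knockout control 1. Without any 1 of the other controls it was 78 to 97. With slide as a block it was 81 (32 higher, 49 lower), the same as without knockout control 3. That array is the only control on the second slide, so without IL-4 the slide block amounts to leaving it out. In every slide-block value without IL-4, slide and this array cannot be told apart. By fitted values, 155 genes were lower and 93 higher in knockout cells by at least 3 on the log2 scale, and 32 were lower and 9 higher by at least 5. These sizes include dim genes that have only a bound, 215 of the lower and 184 of the higher called genes. The balance at large sizes may therefore depend on dim signals, which was not tested. In 1589 of the 1597 called genes the 3 knockout and 3 wild-type arrays did not overlap, beside 58.7% of all genes tested. The difference between both genotype contrasts was itself tested. It was called in 1756 genes (10.6%, with 5.03% towards higher and 5.61% towards lower), and 1326 of the 1597 genes (83.0%) were called in the same direction in it. That contrast contains the same 6 arrays with IL-4, so this agreement is partly built in and is no separate support. Other probes, present for 388 of the 1597 called genes, gave the sign of the probe used in 509 of 520 cases. In 408 of the 520 (78.5%) they gave that sign with a difference of at least 2-fold. With slide as a block 1702 genes were called, of which 1338 were among the 1597 with the same sign (743 of the 833 lower and 595 of the 764 higher). Genes given below by name as higher or lower that did not pass with the slide block were Ankrd37, Bub1, Ccr7, Ccr9, Egln3, Ern1, Id2, Ifng, Ighm, Il10, Il18r1, Il2, Il21r, Il6, Irf1, Itga2b, Jak3, Nkg7, Osm, Pim2, Prc1, Sdf2l1, Siglech, Socs4, Socs5, Socs6 and Tnfsf4. Their adjusted p in that fit ran from 0.0508 (Socs4) to 0.852 (Pim2). Log2 differences that still passed there but moved by more than 1.5 times were those of Ccl9 (fitted, 1.92), Ddit3 (-1.05), Ebf1 (0.36), Lag3 (1.17), Trib3 (-1.59) and Vegfa (-1.57). Of differences without IL-4 given below with a p or a direction that passed in the main fit, those of Egln3, Fosl2, Htr7, Ndrg2, Sphk1 and Vegfa did not with the slide block (adjusted p from 0.0755 for Vegfa to 0.143 for Sphk1).

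**Figure D1:**
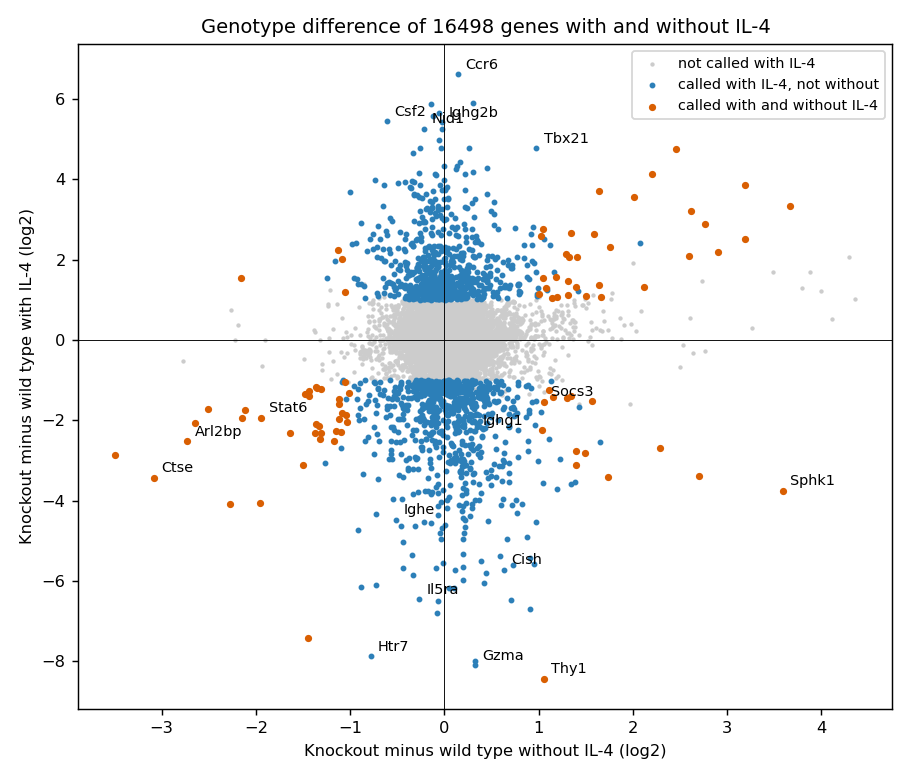
Each point is 1 of the 16498 genes, with the genotype difference (knockout minus wild type, log2) without IL-4 on the horizontal and with IL-4 on the vertical axis. Called genes are coloured, blue where called with IL-4 and not without, orange where called in both. Most of the 1597 genes called with IL-4 lie within 1 of 0 on the horizontal axis, while the vertical axis runs from Thy1 at -8.43 to Ccr6 at 6.62. Values of dim genes such as Gzma are fitted values, for which the text gives bounds.

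Among genes well above background on all 6 arrays, the 10 with the largest deficit in knockout cells included receptors, feedback inhibitors and G protein signalling genes. Thy1, a surface glycoprotein best known from mouse T cells and known to be inducible on activated mouse B cells by IL-4, read 6.77, 6.82 and 6.71 in wild-type and -1.58, -1.42 and -1.98 in knockout cells. Every wild-type array stood far above every knockout array, and the difference was -8.43 ± 0.17 (SE), 345-fold lower, with an adjusted p of 1.29e-10. In the controls Thy1 was low in both genotypes, at a mean of -4.13 in wild-type and -3.08 in knockout cells, a fitted difference of 1.06 (adjusted p = 0.00796) with the opposite sign, where the wild-type controls were not well above background. Htr7, a serotonin receptor that couples to stimulatory G proteins, read 4.73, 4.68 and 4.67 in wild-type and -2.82, -3.49 and -3.23 in knockout cells. Its difference was -7.88 ± 0.18 (SE), 235-fold lower, with an adjusted p of 3.00e-10, against a fitted -0.78 (adjusted p = 0.0284) without IL-4, where the knockout controls were dim. Il5ra, the chain of the IL-5 receptor that binds the cytokine, read 6.80, 6.77 and 6.75 in wild-type and 0.37, 0.48 and 0.11 in knockout cells. This difference was -6.46 ± 0.10 (SE), 87.8-fold lower, with an adjusted p of 1.98e-11, and without IL-4 the genotypes differed by -0.27 (adjusted p = 0.0954).

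Cish and Socs2, which encode SOCS family inhibitors of cytokine receptor signalling, both stood among the 10. Cish read 6.26, 6.19 and 6.22 in wild-type and 0.25, 0.39 and 0.87 in knockout cells, a difference of -5.72 ± 0.15 (SE), 52.7-fold lower, with an adjusted p of 6.44e-10. Socs2 read 5.10, 4.98 and 5.01 in wild-type and -0.70, -0.71 and -0.56 in knockout cells, a difference of -5.69 ± 0.10 (SE), 51.5-fold lower, with an adjusted p of 5.69e-11. The wild-type arrays were high and tightly grouped for both genes, and no knockout array came near them. Plcd1, a phospholipase C that cleaves phosphoinositides, differed by -5.73 ± 0.17 (SE), 52.9-fold lower, with an adjusted p of 1.48e-09, and Gnb4, a G protein beta subunit, by -4.96 ± 0.08 (SE), 31.1-fold lower, with an adjusted p of 2.93e-11. The remaining genes were Oit3 (-4.96), Gprin3 (-4.72) and Atp11a (-4.68), which encodes a phospholipid flippase of the plasma membrane. Of the 10 genes only Thy1 was also called without IL-4, with the opposite sign, and the fitted differences of the others there lay between -0.92 (Gprin3) and 0.63 (Cish).

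A further 215 of the called genes that were lower were not well above background on any knockout IL-4 array, so that only a bound can be given. Gzma, which encodes the serine protease granzyme A of cytotoxic granules, read 2.16, 2.54 and 2.30 in wild-type and -5.93, -5.56 and -5.82 in knockout cells. Granzyme A message was at least 81.7-fold lower, with a fitted difference of -8.10 ± 0.12 (SE, adjusted p = 1.98e-11). Pros1, which encodes the anticoagulant protein S, was at least 63.7-fold lower, the unannotated C430002N11Rik at least 56.7-fold, the T cell receptor alpha segment Trav14n-1 at least 42.8-fold and Rai14, an actin-associated ankyrin repeat protein, at least 38.2-fold. Each of these 5 was well above background on all 3 wild-type IL-4 arrays. In the controls their differences lay between -0.73 and 0.33, and none passed the test.

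**Figure D2:**
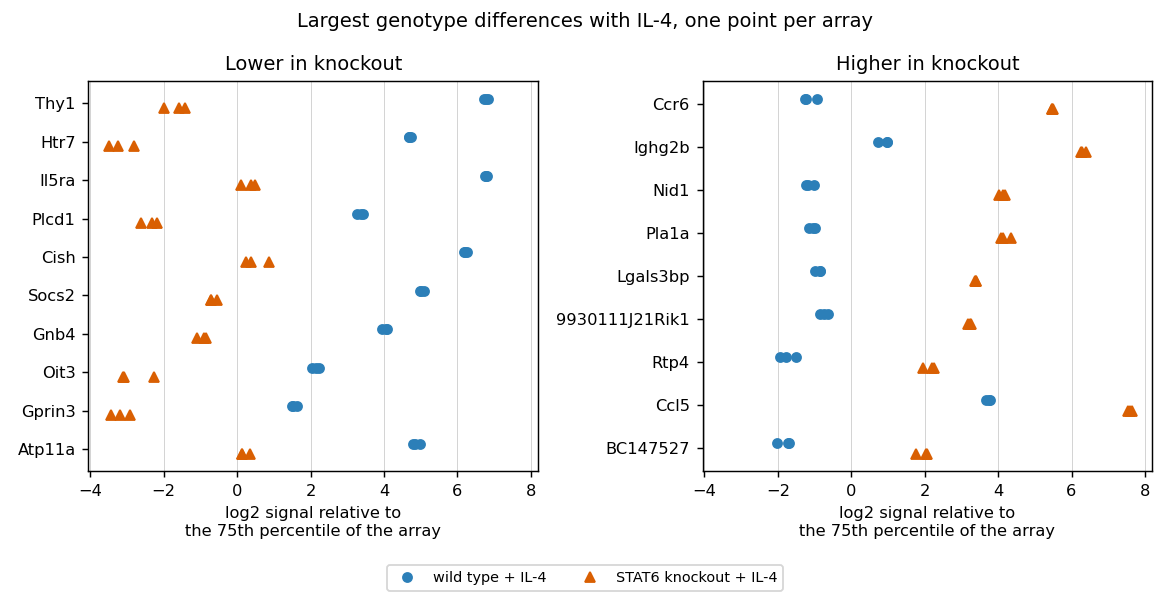
The horizontal axes give the log2 signal relative to the array's 75th percentile, and each point is 1 array, circles for wild type with IL-4 and triangles for STAT6 knockout with IL-4. The left panel shows the 10 genes most reduced in knockout cells and the right panel 9 of the 10 most increased, among genes well above background on all 6 arrays. The 3 arrays of a group lie close together for every gene shown, and the group means differ by 4.68 or more on the left and by 3.77 or more on the right.

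In the other direction, the 10 genes with the largest excess in knockout cells held a chemokine receptor, an immunoglobulin constant region and secreted proteins. Ccr6, the receptor of the chemokine CCL20, read -1.26, -1.24 and -0.92 in wild-type and 5.50, 5.47 and 5.46 in knockout cells. Every knockout array stood far above every wild-type array, and the difference was 6.62 ± 0.09 (SE), 98.2-fold higher, with an adjusted p of 7.89e-12. In the controls Ccr6 read a mean of 6.79 in wild-type and 6.93 in knockout cells, so that the wild-type IL-4 arrays were the low group among the 4. Nid1, a basement membrane glycoprotein, read -1.18, -1.22 and -1.02 in wild-type and 4.14, 4.03 and 4.19 in knockout cells, a difference of 5.26 ± 0.08 (SE), 38.3-fold higher, with an adjusted p of 2.93e-11. Pla1a, a phospholipase that acts on phosphatidylserine, differed by 5.25 ± 0.09 (SE), 38.1-fold higher, with an adjusted p of 3.16e-11. The inflammatory chemokine Ccl5 read 3.67, 3.75 and 3.78 in wild-type and 7.59, 7.53 and 7.65 in knockout cells, 14.4-fold higher (adjusted p = 5.69e-11). Others were Ighg2b, described with the constant regions, the galectin ligand Lgals3bp (4.28), the interferon-induced Rtp4 (3.87), 9930111J21Rik1 (3.98) and BC147527 (3.77). Without IL-4 none of the 10 was called, and the differences there lay between -0.64 and 0.45.

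For 184 called genes the wild-type IL-4 arrays were the dim group. Csf2, which encodes the growth factor GM-CSF, read 1.47, 1.53 and 1.41 in knockout and -3.84, -3.97 and -4.15 in wild-type cells, and was at least 39.1-fold higher, with a fitted difference of 5.45 ± 0.10 (SE, adjusted p = 5.69e-11). The lectin gene Itln1 was at least 23.7-fold higher, Cd5l, a secreted scavenger receptor protein, at least 21.2-fold, the fatty acid elongase Elovl7 at least 17.4-fold and the carboxypeptidase Cpd at least 13.0-fold. In the controls all 5 were well above background on every array of both genotypes, with wild-type means from 0.26 (Cpd) to 1.41 (Csf2). Of these, Csf2 differed between the controls by -0.61 (adjusted p = 0.00833), with the opposite sign.

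The immunoglobulin heavy chain constant regions separated into isotypes that were lower and isotypes that were higher in knockout cells. Ighg1, the IgG1 constant region, read 6.41, 6.40 and 6.39 in wild-type and 4.11, 4.03 and 4.26 in knockout cells with IL-4. Its difference was -2.26 ± 0.07 (SE), 4.80-fold lower, with an adjusted p of 2.44e-09, and the knockout IL-4 arrays lay beside the knockout controls, at 3.90, 4.03 and 4.10. Ighe, the IgE constant region, read 3.40, 3.33 and 3.28 in wild-type and -1.33, -1.10 and -0.97 in knockout cells, a difference of -4.47 ± 0.10 (SE), 22.2-fold lower, with an adjusted p of 2.04e-10. The knockout IL-4 arrays were the lowest of all groups for Ighe, below the knockout controls at 0.02, 0.23 and 0.33 and the wild-type controls at 0.72, 0.73 and 0.67. Ighg2b read 0.96, 0.97 and 0.74 in wild-type and 6.40, 6.26 and 6.29 in knockout cells, a difference of 5.43 ± 0.07 (SE), 43.0-fold higher, with an adjusted p of 7.89e-12. Ighg3 read 2.50, 2.33 and 2.33 in wild-type and 4.23, 4.06 and 4.33 in knockout cells, a difference of 1.82 ± 0.10 (SE), 3.54-fold higher, with an adjusted p of 1.08e-07. For both IgG2b and IgG3 the wild-type IL-4 arrays were the low group, with wild-type controls at 6.64 and 5.26 on average. The probe named Ighg2c read -3.79, -3.54 and -3.74 in wild-type, where 1 of 3 arrays was well above background, and 1.16, 1.21 and 0.91 in knockout cells, a difference of 4.79 (adjusted p = 8.09e-11).

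Ighm, the IgM constant region, read 7.49, 7.49 and 7.45 in wild-type and 7.70, 7.67 and 7.59 in knockout cells. Its difference was 0.18 ± 0.04 (SE), 1.13-fold higher, with an adjusted p of 0.00622 in the main fit, and it no longer passed once slide was a block (0.21, adjusted p = 0.0712). Igha differed by -0.11 (adjusted p = 0.695), and its groups overlapped. The signals measure all transcripts of a constant region, germline and switched, and say nothing of protein. The IgG subclasses are close relatives, and BALB/c mice carry Ighg2a in place of Ighg2c, so the reading of that probe is uncertain as to gene. A second Ighg1 probe, in the first constant domain, gave a smaller difference of -1.29 ± 0.06 (SE), with 4.73, 4.77 and 4.80 in wild-type and 3.51, 3.39 and 3.53 in knockout cells. The probes whose isotypes moved most are printed, all from the reverse strand of chromosome 12 (build mm9), where the constant region genes lie in a row.
Ighg1 probe at chr12:114567263-114567322: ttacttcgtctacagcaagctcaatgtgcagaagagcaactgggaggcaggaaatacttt
Ighg1 second probe at chr12:114568594-114568653: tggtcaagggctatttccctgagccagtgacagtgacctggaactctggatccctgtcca
Ighg2b probe at chr12:114544738-114544797: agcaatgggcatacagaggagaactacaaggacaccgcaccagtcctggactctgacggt
Ighe probe at chr12:114509504-114509563: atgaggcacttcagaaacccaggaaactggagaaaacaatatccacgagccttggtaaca

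**Figure D3:**
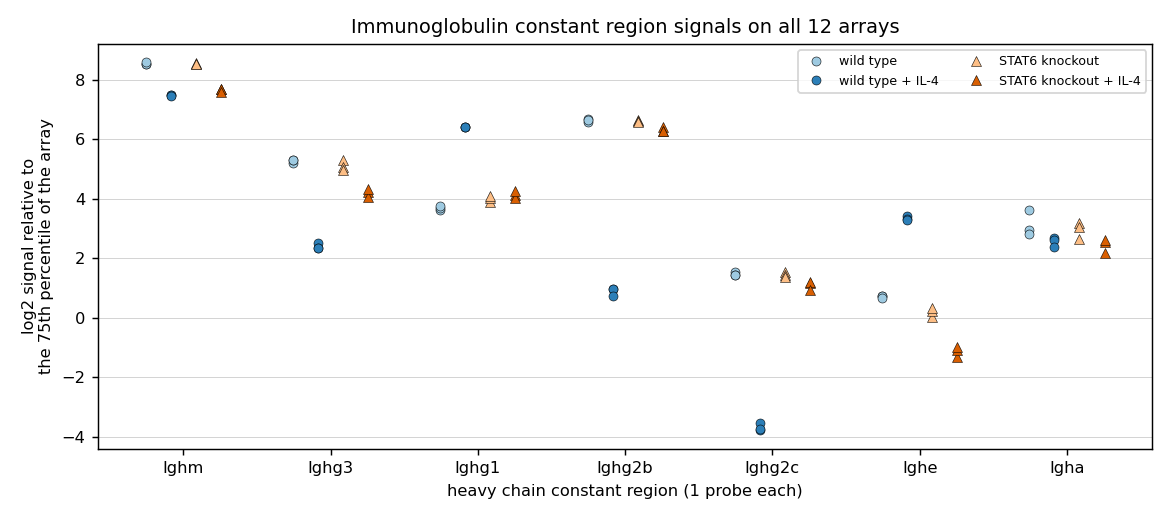
The vertical axis gives the log2 signal relative to the array's 75th percentile for 1 probe of each constant region, and each point is 1 of the 12 arrays, blue circles for wild type and orange triangles for knockout, pale without IL-4 and dark with it. With IL-4 the wild-type arrays are high for Ighg1 (6.39 to 6.41) and Ighe (3.28 to 3.40) and low for Ighg3, Ighg2b and Ighg2c, while the knockout IL-4 arrays lie near both control groups for Ighg1, Ighg2b and Ighg2c.

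Among the 22 tested members of the list of constant regions and switching genes 11 were higher and 5 lower, with a median of 0.16, beside 29.8% higher and 21.3% lower (51.1% in all) and a median of 0.06 over all genes tested. These shares of all genes are the background of every list count below that comes from the main fit with IL-4. With slide as a block 2979 of the 16498 genes were higher and 2294 lower with IL-4. Without IL-4 that fit had 149 higher and 268 lower, or 1335 and 2260 at an unadjusted p under 0.05. Repair genes that act on the switch breaks showed small differences, such as the exonuclease gene Exo1 (0.84) of mismatch repair, which was higher. Id2, an inhibitor of E proteins, was lower (-0.85).

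Of the receptor and its signalling genes, the ligand-binding chain showed the largest difference. Il4ra read 0.12, 0.06 and 0.34 in wild-type and -2.62, -2.61 and -2.62 in knockout cells. The difference was -2.79 ± 0.20 (SE), 6.90-fold lower, with an adjusted p of 1.08e-06, and the knockout IL-4 arrays lay near the controls, whose means were -2.76 and -2.37. Il2rg, the common gamma chain, was slightly higher, from 5.17, 5.11 and 5.08 in wild-type to 5.55, 5.50 and 5.52 in knockout cells (1.32-fold, adjusted p = 2.66e-05). Of 21 tested genes of IL-4 receptor and JAK-STAT signalling 7 were higher and 7 lower (33.3% each), with a median of -0.0068, and with slide as a block 4 were higher and 5 lower with a median of -0.11. Stat5a (-1.33) and Stat5b (-0.83), transcription factors of other cytokine receptors, were lower, as were the adaptor Irs2 (-0.85) and the phosphatase gene Inpp5d (-0.66), which encodes SHIP1. Higher were the kinases Jak3 (0.68) and Jak1 (0.37) and the phosphatase Ptpn6 (0.91), which encodes SHP-1.

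The SOCS family, feedback inhibitors of JAK kinases, had 5 lower and 2 higher of 8 members tested, with a median of -0.93. Beside Cish and Socs2, Socs1 read 4.19, 4.14 and 4.20 in wild-type and 2.36, 2.25 and 2.04 in knockout cells, 3.89-fold lower (adjusted p = 3.34e-08). Socs3 read 3.49, 3.45 and 3.52 in wild-type and 1.85, 1.77 and 2.24 in knockout cells, 2.90-fold lower (adjusted p = 3.18e-05), and was higher in knockout controls (1.05, adjusted p = 0.00765). Socs6 was slightly lower (-0.32), and Socs4 (0.30) and Socs5 (0.78) were slightly higher. All of Socs4, Socs5 and Socs6 missed the threshold with the slide block (adjusted p = 0.0508, 0.131 and 0.190), where limma found 4 members lower and 0 higher (4 and 1 at an unadjusted p).

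Of 25 tested genes known as IL-4 or STAT6 targets in B cells 17 were lower and 4 higher in knockout cells, with a median of -0.79. Without IL-4 the median of the same genes was -0.01, with 5 lower and 2 higher (1 and 0 by limma with the slide block, 6 and 2 at an unadjusted p under 0.05), where 6.96% of all genes were lower and 4.73% higher by that p (11.7% in all). Nfil3, a basic leucine zipper repressor, read 6.33, 6.36 and 6.38 in wild-type and 3.65, 3.71 and 3.97 in knockout cells, 5.98-fold lower (adjusted p = 4.69e-08). Bcl6, the repressor of the germinal centre programme, read 4.41, 4.35 and 4.44 in wild-type and 2.78, 2.57 and 2.75 in knockout cells, 3.24-fold lower (adjusted p = 5.93e-09). Fcer2a, which encodes the low-affinity IgE receptor CD23, read 8.01, 7.97 and 7.94 in wild-type and 6.80, 6.78 and 6.82 in knockout cells, 2.26-fold lower (adjusted p = 2.08e-08). Its knockout IL-4 arrays stayed above the knockout controls, which averaged 6.17. The transcription factors Egr2 (-2.43) and Gfi1 (-2.33) were also lower, as were Xbp1 (-1.88), Tgm2 (-1.30), which encodes transglutaminase 2, and Il4i1 (-0.79), which encodes an amino acid oxidase. The 4 members that were higher were the costimulatory ligands Icosl (2.18) and Cd86 (0.93) and the chemokine genes Ccl22 (1.91) and Ccr7 (0.25).

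The letters TTCNNNNGAA, which read the same on both strands, were looked up in RefSeq promoters of build GRCm38.p6, from 250 bases before to 50 after the start. They were in 6.95% of all 32851 promoters, in 5.42% of those of tested genes, in 7.09% of the 762 promoters of genes called lower and in 6.12% of the 588 of genes called higher in knockout cells. Among genes lower by at least 3 on the log2 scale they were in 8.33% of 120 promoters, and among those higher by at least 3 in 1.56% of 64. The shorter spacing, TTCNNNGAA, also palindromic and counted separately, was in 6.56% of promoters of lower and 8.33% of higher genes, against 8.3% of all promoters and 7.03% of those of tested genes. At a difference of at least 3 the order turned, with 10.8% of the promoters of lower and 6.25% of those of higher genes. A match is a description of letters in this window and not of binding. Of the 10 genes most reduced in knockout cells 6 had a promoter in the table. Il5ra held a TTCNNNNGAA site, Cish held a pair of sites with the shorter spacing, and Htr7, Plcd1, Gprin3 and Atp11a held neither. The promoters of Il5ra, of Cish and Fcer2a (both chosen after their values were seen) and of Htr7, which has no match, are printed to show what the letters look like, with the sites in capitals.
Il5ra promoter at chr6:106748988-106749287, reverse strand: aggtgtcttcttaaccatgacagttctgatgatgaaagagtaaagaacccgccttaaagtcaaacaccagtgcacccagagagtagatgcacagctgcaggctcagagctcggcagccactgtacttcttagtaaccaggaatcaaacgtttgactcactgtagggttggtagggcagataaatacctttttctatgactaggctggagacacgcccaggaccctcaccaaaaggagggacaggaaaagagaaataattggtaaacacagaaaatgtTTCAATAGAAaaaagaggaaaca
Fcer2a promoter at chr8:3690812-3691111, reverse strand: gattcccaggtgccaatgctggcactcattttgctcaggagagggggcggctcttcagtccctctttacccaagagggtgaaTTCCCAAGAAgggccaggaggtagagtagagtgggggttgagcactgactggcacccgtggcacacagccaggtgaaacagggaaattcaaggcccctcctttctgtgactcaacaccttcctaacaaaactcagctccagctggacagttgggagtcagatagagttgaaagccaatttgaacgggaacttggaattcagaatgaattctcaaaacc
Cish promoter at chr9:107296409-107296708, forward strand: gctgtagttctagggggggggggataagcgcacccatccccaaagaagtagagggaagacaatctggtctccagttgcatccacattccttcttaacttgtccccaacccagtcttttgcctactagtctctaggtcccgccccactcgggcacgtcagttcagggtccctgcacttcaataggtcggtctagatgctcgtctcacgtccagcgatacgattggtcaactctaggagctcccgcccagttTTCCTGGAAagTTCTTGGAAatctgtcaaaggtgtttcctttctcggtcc
Htr7 promoter at chr19:36057311-36057610, reverse strand: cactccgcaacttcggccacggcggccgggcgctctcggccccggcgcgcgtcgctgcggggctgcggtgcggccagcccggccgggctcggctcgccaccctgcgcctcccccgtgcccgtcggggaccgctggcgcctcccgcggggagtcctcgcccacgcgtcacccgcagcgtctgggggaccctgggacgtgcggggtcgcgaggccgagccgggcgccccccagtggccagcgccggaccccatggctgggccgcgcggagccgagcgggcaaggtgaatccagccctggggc
The site of Il5ra begins at base 278 of the window, past the start, and that of Fcer2a at base 83, which is 168 bases before it. In Fcer2a 1 of 3 promoters listed held the letters.

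Interferon response genes were higher together in knockout cells. Of 38 tested, 35 were higher and 0 lower by limma, and the median difference was 1.51, or 1.42 with the 5 members that have only a bound set to it. At an unadjusted p under 0.05 36 were higher and 0 lower, and the lowest value was 0.12 (Iigp1). Without IL-4 the same 38 genes had a median of -0.06, with 1 higher and 10 lower (0 and 3 by limma with the slide block, 2 and 12 at an unadjusted p), and the difference of both contrasts was itself past the test in 34, all towards higher with IL-4, beside 28.3% of all genes towards higher and 16.4% towards lower (44.8% in all). Mx1, an antiviral GTPase, read -0.68, -0.21 and -0.28 in knockout cells and -4.12, -4.72 and -5.11 in wild-type cells, where it was not well above background, and was at least 10.9-fold higher, with a fitted difference of 4.26 ± 0.21 (SE, adjusted p = 7.20e-08). Usp18, which removes the ubiquitin-like modifier ISG15, read -2.97, -2.65 and -2.97 in wild-type and 0.66, 0.97 and 0.94 in knockout cells, a difference of 3.72 ± 0.12 (SE), 13.2-fold higher, with an adjusted p of 2.46e-09. Irf7, a transcription factor of the interferon response, read -1.81, -1.73 and -1.57 in wild-type and -0.46, -0.15 and -0.13 in knockout cells, a difference of 1.45 ± 0.11 (SE), 2.74-fold higher, with an adjusted p of 1.45e-06. Ifit1 differed by 2.97, Gbp3 by 2.51, Irgm1 by 1.98 and the RNA sensor Ifih1 by 1.80. Transcription factors that act downstream of interferon receptors differed less, Stat2 by 0.24 and Irf1 by 0.25. The summed signal was 302 to 318.5 in wild-type and 746.7 to 752.3 in knockout cells with IL-4, against 643.2 to 691.6 and 607.8 to 614.6 in the wild-type and knockout controls. The wild-type IL-4 arrays were the group that stood apart. With slide as a block limma found 32 members higher and 0 lower (33 and 0 at an unadjusted p).

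**Figure D4:**
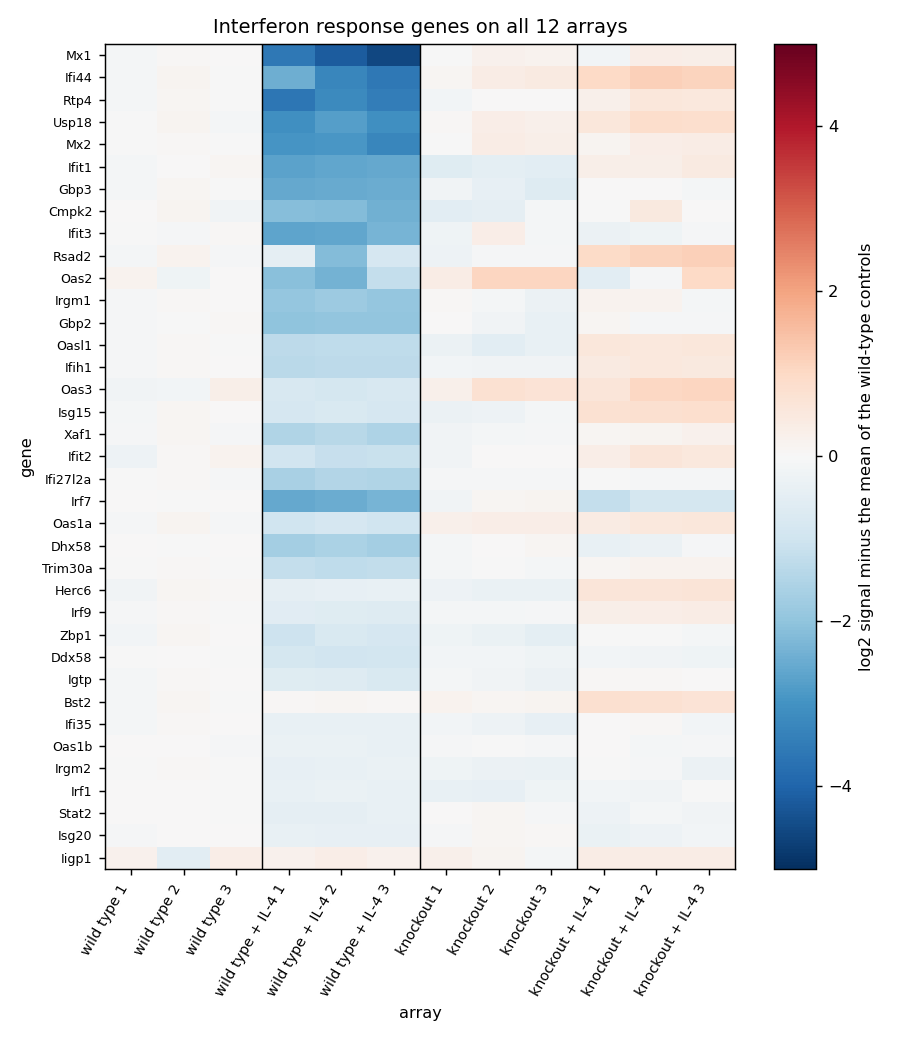
Rows are 37 of the 38 interferon response genes tested, ordered by the genotype difference with IL-4, and columns are the 12 arrays. Colour gives the log2 signal minus the mean of the 3 wild-type controls, blue for lower and red for higher. The 3 wild-type IL-4 columns are blue for most rows, and the knockout columns, with or without IL-4, are mostly pale or light red, with Irf7 light blue in the knockout IL-4 columns.

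Genes of mature B cell identity were mostly higher in knockout cells, 19 of 27 tested, with 4 lower and a median of 0.63. Without IL-4 the median of these genes was -0.10, with 4 lower and 0 higher by limma (11 and 2 at an unadjusted p under 0.05) and 0 of either with the slide block (7 and 0 at an unadjusted p). Fcrl1, which encodes an Fc receptor-like surface protein, was at least 4.40-fold higher, and the related Fcrla (3.54) and Fcrl5 (1.30) were also higher. Cr2, which encodes the complement receptors CD21 and CD35, read 1.37, 1.26 and 1.23 in wild-type and 4.29, 4.34 and 4.13 in knockout cells, a difference of 2.97 ± 0.12 (SE), 7.81-fold higher, with an adjusted p of 1.17e-08. Id3, an inhibitor of E proteins, read 0.66, 0.83 and 0.77 in wild-type and 4.53, 4.44 and 4.17 in knockout cells, a difference of 3.63 ± 0.11 (SE), 12.4-fold higher, with an adjusted p of 1.85e-09. The adaptor Bank1 (1.63), the kinase Blk (0.85) and the identity factors Pax5 (0.79), Ebf1 (0.63) and Bach2 (0.61) were higher by less. Those that were lower included Fcer2a, the coactivator Pou2af1 (-0.93) and Cd79b (-0.64).

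Of 18 tested genes of the plasma cell programme 10 were lower and 4 higher, with a median of -0.40, so that the list was split. Xbp1, the transcription factor that drives secretory capacity, read 7.52, 7.48 and 7.49 in wild-type and 5.66, 5.60 and 5.59 in knockout cells, 3.68-fold lower (adjusted p = 2.67e-09). Cd28, a costimulatory receptor also borne by plasma cells and T cells, differed by -3.27, with 2 of 3 knockout arrays well above background, Cxcr4, the bone marrow homing receptor, by -1.11, and Sdc1, which encodes the plasma cell marker CD138, by -0.71. In the opposite direction Igj, the joining chain of polymeric IgM and IgA, read 0.45, 0.61 and 0.64 in wild-type and 3.03, 2.92 and 2.77 in knockout cells, 5.05-fold higher (adjusted p = 1.95e-07). Prdm1, which encodes the plasma cell factor Blimp-1, was higher (0.83), as were Derl3 (1.08) and the kinase Pim2 (0.50). Irf4 read 5.67, 5.68 and 5.65 in wild-type and 5.66, 5.67 and 5.78 in knockout cells and did not pass the test (adjusted p = 0.685).

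Of 26 tested genes of the unfolded protein response and secretion 17 were lower and 2 higher, by small amounts, with a median of -0.35. The range of the list was -0.9993 (Sec24d, a COPII coat protein) to 0.56 (Ern1, which encodes the sensor IRE1α). The chaperone Hspa5, known as BiP, differed by -0.47, Sdf2l1 by -0.63 and Creld2 by -0.78. With slide as a block 9 members were lower and 1 higher.

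Costimulatory and coreceptor genes differed in both directions, 14 higher and 7 lower of 27 tested, with a median of 0.32. Cd80, a ligand of CD28, read 2.19, 2.20 and 2.17 in wild-type and 4.71, 4.77 and 4.95 in knockout cells, 6.17-fold higher (adjusted p = 4.95e-10). Icosl, the ligand of ICOS, read -0.32, -0.38 and -0.47 in wild-type and 1.90, 1.72 and 1.74 in knockout cells, 4.52-fold higher (adjusted p = 3.45e-09). The inhibitory receptor Lag3 (1.76), the adhesion receptor Cd2 (1.35) and Tnfrsf13b (1.20), which encodes the BAFF and APRIL receptor TACI, were also higher. Havcr1, which encodes TIM-1, read 3.07, 3.15 and 3.04 in wild-type and 0.82, 0.81 and 0.63 in knockout cells, 5.04-fold lower (adjusted p = 6.63e-09). Slamf1 (-1.38) and Tnfsf4 (-1.06), which encodes the OX40 ligand, were lower too.

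Of 17 cytokine genes tested 8 were higher and 5 lower, with a median of 0.19. Beside Csf2, Il2 was at least 2.68-fold higher, Ltb, which encodes lymphotoxin beta, differed by 1.77, Il18 by 1.61, Il10 by 0.75 and Tnf by 0.68. Ifng was at least 1.53-fold lower, Csf1 differed by -0.92, Osm by -0.63, Lta by -0.45 and Il6 by -0.25. In the controls Il10 differed by 0.60, which did not pass the test (adjusted p = 0.0668). With slide as a block 5 cytokine genes were higher and 2 lower.

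Among 29 cytokine receptor genes 14 were lower and 7 higher, with a median of -0.19. Il2rb, the chain shared by the IL-2 and IL-15 receptors, read 0.78, 0.75 and 0.84 in wild-type and -1.06, -0.82 and -0.21 in knockout cells, 2.80-fold lower (adjusted p = 7.29e-05). Il1r1, the signalling receptor of IL-1, was at least 4.68-fold lower. Il7r (-1.31), the shared chain Il6st (-0.99), which encodes gp130, Il6ra (-0.49) and Il21r (-0.35) were lower. Csf2rb (0.65), the shared chain of the GM-CSF, IL-3 and IL-5 receptors, was higher while Il5ra was lower, and Il9r was higher (0.86). Il18r1, counted as higher, was not well above background on any of the 6 arrays.

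Of 25 chemokine and migration genes tested 11 were higher and 9 lower, with a median of 0.07, which turned to -0.02 with slide as a block (9 higher and 6 lower). Cxcr5, the receptor that guides B cells to follicles, read 4.54, 4.63 and 4.62 in wild-type and 5.93, 5.86 and 6.03 in knockout cells, 2.54-fold higher (adjusted p = 2.01e-08). Ccr10 differed by 1.97 and Ccl22, a ligand of CCR4, by 1.91. The interferon-induced chemokine Cxcl10 differed by 2.65, with 1 of 3 wild-type arrays well above background, and Ccl9 was at least 2.01-fold higher. Lower were the sphingosine 1-phosphate receptors S1pr3 (-3.19), S1pr1 (-0.93) and S1pr4 (-0.81), and Gpr183 (-1.82), the oxysterol receptor EBI2 that positions activated B cells. The lymphotactin gene Xcl1 differed by -3.24, with 1 of 3 knockout arrays well above background. Ccr9, counted as lower, was not well above background on any of the 6 arrays and is given no size.

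Granzymes, serpins and related protease inhibitors had the lowest median of the lists tested, -3.06, or -2.37 with 3 members at their bound, with 10 of 16 lower and 3 higher. Without IL-4 the median was 0.01, with 2 higher and 0 lower by limma (3 and 2 at an unadjusted p under 0.05). With the slide block that median was 0.08, with 1 higher and 0 lower by limma (3 and 2 at an unadjusted p). Serpina3g, an inhibitor of cathepsin B, read 7.89, 7.88 and 7.80 in wild-type and 3.95, 3.98 and 4.14 in knockout cells, 14.3-fold lower (adjusted p = 1.53e-11). Its relatives Serpina3f (-3.96) and Serpina3i (-4.14) had differences of the same order, and their sequences are close enough that a probe may read more than 1 of them. Serpinb9, the inhibitor of granzyme B, read -0.22, 0.11 and 0.01 in wild-type and -2.62, -2.56 and -2.53 in knockout cells, 5.80-fold lower (adjusted p = 1.74e-07). Gzmb was at least 3.47-fold and Gzmc at least 4.62-fold lower. The secreted inhibitor Slpi differed by -3.41, the cystatin Cst7 by -3.32 and Serpinb6b by -3.97. Serpine2 (2.82), Serpinb1a (1.11) and Cst3 (0.55) were the members that were higher. The NK and cytotoxic cell markers Ncr1, Klrb1c, Klrk1, Klrd1 and Eomes were not well above background on any of the 6 arrays.

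Of 34 tested transcription factors of lymphocyte lineages 12 were higher and 14 lower, with a median of -0.02. Tbx21, which encodes T-bet, read -5.85, -5.32 and -5.69 in wild-type and -1.04, -0.78 and -0.69 in knockout cells and was at least 7.96-fold higher, with a fitted difference of 4.78 ± 0.33 (SE, adjusted p = 8.93e-07). Without IL-4 it differed by 0.98 (adjusted p = 0.0788). Zbtb32, a repressor of B cell responses, differed by 3.18 and the nuclear receptor Rora by 2.37. Fosl2, an AP-1 subunit, read 0.21, 0.49 and 0.18 in wild-type and -3.03, -2.59 and -1.81 in knockout cells, 6.82-fold lower (adjusted p = 2.10e-05), and was higher in knockout controls (1.40). The Krüppel-like factors Klf2 (-2.15) and Klf4 (-1.69), Batf3 (-1.63) and Ahr (-1.26), the aryl hydrocarbon receptor, were lower.

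The G protein signalling list, which holds Htr7, Plcd1 and Gnb4, had 10 lower and 9 higher of 27 tested (37.0% and 33.3%), with a median of -0.05, which turned to 0.02 with slide as a block. Its regulators of G protein signalling went both ways: Rgs16 was at least 6.17-fold lower and Rgs1 differed by -1.82, whereas Rgs18 was at least 11.5-fold higher and Rgs3 differed by 1.45. Rgs18 was also higher in knockout controls (2.46, adjusted p = 0.000843). Of 27 adhesion and integrin genes 12 were lower and 8 higher, with a median of -0.08 (-0.16 with slide as a block). The integrin chains Itgax, Itga1 and Itga5 were at least 2.08-fold, 3.57-fold and 3.62-fold lower, and Itgb3 (-1.66) and the tetraspanin Cd9 (-1.52) were lower. Itga4 (1.45), the annexin Anxa1 (3.22) and Icam1 (0.80) were higher. Of 30 genes of Toll-like receptors and NF-kB 13 were higher and 10 lower, with a median of 0.15, and 13 and 6 in the fit with slide. The LPS receptor Tlr4 (1.28), Ly86 (1.49), Cd180 (1.17) and the NF-kB inhibitors Nfkbiz (1.58), Nfkbia (1.18) and Nfkbie (0.95) were higher. Tlr7 (-1.50), the TLR4 cofactors Ly96 (-0.85) and Cd14 (-0.86) and Nfkb1 (-0.85) were lower.

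Genes of MHC class II presentation were lower by small amounts, 11 of 18 tested, with 1 higher and a median of -0.39. Without IL-4 the median was -0.04, with 2 lower. With the slide block 0 were lower or higher there by limma (2 lower and 0 higher at an unadjusted p under 0.05). With IL-4 the fit with slide had 9 lower and 2 higher. The peptide-loading chains H2-DMa and H2-DMb1, which edit the bound peptide, showed the largest differences. H2-DMa read 6.46, 6.48 and 6.43 in wild-type and 5.15, 5.08 and 5.02 in knockout cells, 2.60-fold lower (adjusted p = 8.47e-09), and H2-DMb1 differed by -1.22. H2-Aa, a chain of the surface molecule I-A, differed by -0.96, its partner H2-Ab1 by -0.45 and the invariant chain Cd74 by -0.28. The only member that was higher in the main fit was the regulator Rfx5 (0.40). Of 20 MHC class I genes 6 were higher (30.0%) and 4 lower (20.0%), with a median of 0.09, which is near the 29.8%, 21.3% and 0.06 of all genes, and with slide as a block 4 were higher and 2 lower with a median of 0.04. Of its members the transporter Tap1 (0.64), the immunoproteasome subunit Psmb9 (0.86) and H2-T24 (2.57) were higher, and Calr (-0.55) was lower.

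Genes of DNA replication were higher by small amounts in knockout cells with IL-4, 21 of 29 tested with 0 lower by limma (22 and 0 at an unadjusted p under 0.05) and a median of 0.33, beside the median of 0.06 over all genes. Without IL-4 the median was -0.02, with 1 higher and 1 lower. With the slide block that median was 0.02, with 0 of either by limma (2 and 2 at an unadjusted p). Mcm10 differed by 0.74, Pole, the catalytic subunit of a replicative polymerase, by 0.57, and the helicase subunits Mcm4 and Mcm7 by 0.57 and 0.52. Of 29 mitosis genes 10 were higher (34.5%, near the 29.8% of all genes) and 1 lower (3.45%, beside 21.3%), with a median of 0.20. The checkpoint kinases Bub1 (0.68) and Bub1b (0.62) were among the higher ones. The lower one was Prc1 (-0.19), and with slide as a block 8 mitosis genes were higher and 0 lower by limma (12 and 0 at an unadjusted p). Of 14 D-type cyclins, CDK inhibitors and Myc 7 were higher and 3 lower, with a median of 0.09, which turned to -0.05 with slide as a block (4 higher and 3 lower). Cdkn2a read 2.34, 2.36 and 2.72 in wild-type and 4.92, 5.18 and 5.20 in knockout cells, 6.16-fold higher (adjusted p = 1.68e-08), and Cdkn2b (1.35) and Myc (0.69) were higher. Cdkn1a, which encodes p21, differed by -1.52, Cdkn1c was at least 2.26-fold lower, and Ccnd2 differed by -0.57.

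Sterol biosynthesis genes were higher together by small amounts, 18 of 24 tested with 0 lower by limma (19 and 0 at an unadjusted p under 0.05) and a median of 0.46. The median without IL-4 was -0.02, with 1 higher. With the slide block that median was 0.02, with 0 higher and 0 lower by limma (1 and 2 at an unadjusted p). In the same fit 18 were again higher with IL-4. Mvd, the last enzyme before isopentenyl diphosphate, differed by 0.90, Dhcr7, an enzyme of the final steps to cholesterol, by 0.88 and Cyp51 by 0.80. Of 25 genes of the ATF4 response and serine synthesis 14 were lower and 2 higher, with a median of -0.24, and with slide as a block 15 were lower and 1 higher with a median of -0.40. Atf5 read 8.34, 8.34 and 8.25 in wild-type and 6.37, 6.24 and 6.27 in knockout cells, 4.05-fold lower (adjusted p = 4.31e-08), and Trib3 (-1.001), Cebpb (-0.98) and Ddit3 (-0.63) were lower by less.

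Glycolysis and hypoxia response genes were uneven among the knockout arrays. The list's median level was 2.84, 3.11 and 4.55 on knockout IL-4 arrays 1, 2 and 3 and 2.78, 2.76 and 2.84 on the wild-type IL-4 arrays, so array 3 was the high one. Of 32 tested 7 were higher and 2 lower, with a median of 0.46, and with slide as a block limma found 2 lower and 0 higher, also at an unadjusted p, with a median of -0.02. Ankrd37, a hypoxia-induced gene, read 2.02, 3.18 and 5.04 in knockout and 1.04, 0.9991 and 0.99 in wild-type cells, a difference of 2.40 ± 0.60 (SE, adjusted p = 0.00697). The same genes were higher in the knockout controls, where the median difference was 1.23 with 26 higher (1.08 with the slide block, where 1 was higher, or 30 at an unadjusted p), and the list's median level there was 3.76, 4.46 and 4.79. Vegfa, the angiogenic growth factor, was lower in knockout cells with IL-4 (-0.90) and higher without it (1.20). Leaving out array 3 was among the alternatives run, but its values for this list are not given here. The cause of the high level on that array was not tested.

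Mitochondrial respiratory chain genes showed small differences, 15 of 34 higher and 1 lower with a median of 0.13, and with slide as a block 6 were higher and 1 lower with a median of 0.21. The lower one was Cox6a2 (-1.21), and the highest was Cyc1 (0.46). Of 14 BCL2 family genes 6 were higher and 5 lower, with a median of 0.04, and with slide as a block 3 were higher and 3 lower with a median of -0.07. The pro-death genes Bmf (1.05) and Bid (0.69) and the survival gene Mcl1 (0.69) were higher. The pro-death gene Bik (-1.32) and the survival gene Bcl2l2 (-0.65) were lower. Bcl2l1, which encodes Bcl-xL, read 6.46, 6.51 and 6.36 in wild-type and 6.55, 6.45 and 6.65 in knockout cells and did not pass the test (adjusted p = 0.262).

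**Figure D5:**
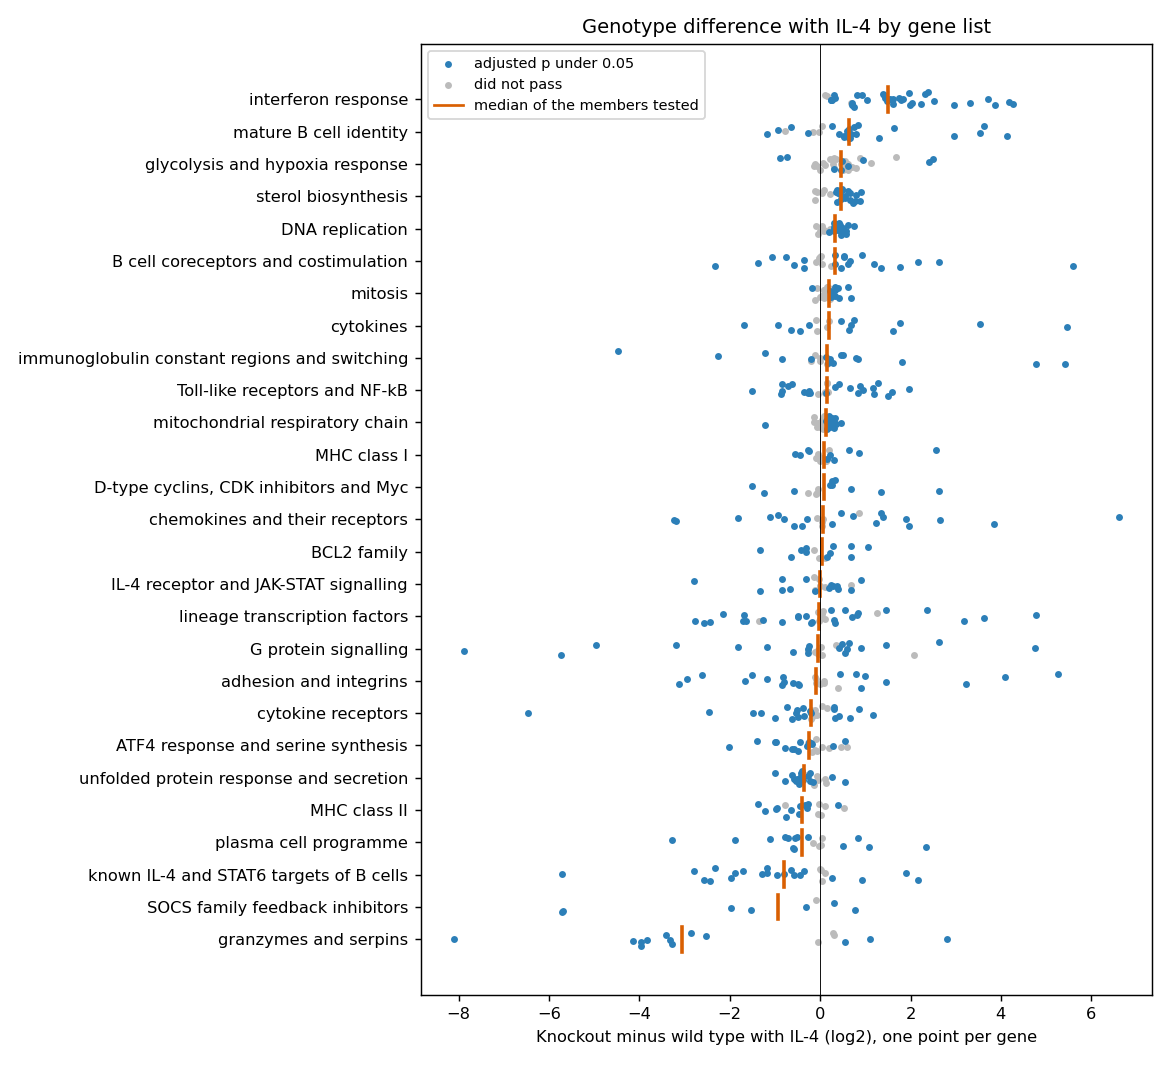
Each point is a tested member of 1 of 27 gene lists, placed by the genotype difference with IL-4 (knockout minus wild type, log2), blue where the adjusted p was under 0.05 and grey where it was not, and the orange bar is the median of the list. The interferon response (median 1.51) and mature B cell identity (0.63) have the highest medians, and granzymes and serpins (-3.06) and the SOCS family (-0.93) the lowest, while most other lists centre near 0. Members that have only a bound are drawn at their fitted values.

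Some genes differed between the genotypes whether or not IL-4 was present. Of the 1597 genes called with IL-4, 67 (4.20%, which is 34.5% of the 194 called without) were called in the same direction without it, 32 higher and 35 lower, and 19 were called in opposite directions. Of the 67, 40 (59.7%) were also called in the same direction in both conditions with slide as a block, where 8 were called in opposite directions. Ctse, which encodes the protease cathepsin E, read 2.25, 2.26 and 2.25 in wild-type and -0.99, -1.14 and -1.38 in knockout cells with IL-4, and 1.99, 1.95 and 1.94 and -1.002, -1.15 and -1.21 without it. Its differences were -3.43 (adjusted p = 5.96e-10) and -3.09 (adjusted p = 4.22e-08). Arl2bp, a partner of the small GTPase ARL2, differed by -2.53 with and -2.73 without IL-4. Xrcc6bp1 differed by -1.94 and -2.15. The chitinase-like Chil1 was at least 5.28-fold lower with and at least 2.06-fold lower without IL-4, and the methionine sulfoxide reductase Msrb3 was at least 5.16-fold lower with and at least 2.81-fold lower without it. Higher in both were Gm8221 (at least 2.72-fold higher with and at least 3.25-fold higher without IL-4), Gm15850 (at least 6.28-fold higher and at least 4.65-fold higher), Srgap1 (at least 1.77-fold higher and at least 2.09-fold higher) and the cardiac troponin Tnnt2 (at least 2.59-fold higher and at least 2.29-fold higher). With IL-4 the hypoxia-induced Egln3 was at least 2.32-fold higher, with 2 of 3 knockout arrays well above background, and differed by 3.19 without it. It read -4.01, -3.18 and -0.66 on knockout IL-4 arrays 1, 2 and 3, so array 3 was the high one. In limma it did not pass with IL-4 after normexp background correction (0.85, adjusted p = 0.105) or on the authors' values (0.87, adjusted p = 0.138). Among the genes of opposite direction, Plagl1, a zinc finger transcription factor, read -2.58, -2.59 and -2.65 in wild-type and -0.40, -0.59 and -0.81 in knockout cells with IL-4, a difference of 2.01, and differed by -1.08 without it. Sphk1, a kinase that makes sphingosine 1-phosphate, read 0.54, 0.46 and 0.43 in wild-type and -4.67, -4.38 and -0.77 in knockout cells with IL-4, where 1 of 3 knockout arrays was well above background, and Ndrg2 differed by -3.39 with and 2.70 without IL-4.

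Part of these genes lie near Stat6 or in a stretch of chromosome 1. Within 10 Mb of Stat6 on chromosome 10, 12 of 122 genes tested (9.84%) were called with IL-4 and 7 (5.74%) without it, beside 9.68% and 1.18% of all genes (5 without IL-4 with slide as a block). Genes called in both and in the same direction there included Msrb3, Srgap1, Xrcc6bp1 and Lrig3 (2.07 with and 1.32 without IL-4, with 1 of 3 wild-type IL-4 arrays well above background). Cd63, a tetraspanin gene 1.25 Mb from Stat6, read 5.02, 5.05 and 4.998 in wild-type and 2.33, 2.29 and 2.41 in knockout cells with IL-4, 6.40-fold lower (adjusted p = 1.36e-09), against 0.35 without IL-4, and Tbc1d30 differed by -2.99 and -0.40. Between 130 and 140 Mb of chromosome 1 (mm9), which holds Ctse, Chil1 and Tnnt2, 23 of 101 genes (22.8%) were called with IL-4 and 16 (15.8%) without it, or 12 without it with slide as a block. This stretch was chosen after earlier results of these data had been seen. Together both regions, with 122 and 101 of the 16498 genes tested, held 19 of the 67 genes called in the same direction in both conditions (28.4%). As the chromosome 1 stretch was chosen from these data, that share is not a test. With slide as a block 81 of all genes tested were called without IL-4.

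Markers of other cell types were read beside these results. The T cell list had 2 higher and 2 lower of 12 tested, the lower being Thy1 and Cd28, while Cd3d, Cd3e and Cd3g read 0.12, -0.24 and -0.20 and did not pass the test. Of the NK and cytotoxic cell markers 4 of 11 were tested, 3 of them lower (Gzma, Gzmb and Nkg7), with a summed signal of 9.096 to 10.95 in wild-type and 4.129 to 4.465 in knockout cells. Of macrophage and monocyte markers 7 were tested, with 2 higher (Mpeg1 at 3.44 and Emr1 at 1.33) and 2 lower (Sirpa at -2.12 and Cd14). Their summed signal was 26.89 to 27.84 in wild-type and 64.02 to 66.64 in knockout cells, and Lyz1, Lyz2, Ccr2 and Mrc1 were not well above background on any of the 6 arrays. Of dendritic cell markers 7 were tested, with 2 higher (Flt3 at 2.11 and Bst2) and 4 lower (Itgax, Batf3, Ccr9 and Siglech), a summed signal of 153.8 to 163.4 and 165.2 to 183.7, and Xcr1, Clec9a and Cd209a were above background on none. Kit, the single mast cell marker tested, was at least 2.79-fold higher, with a summed signal of 0.0163 to 0.0192 in wild-type and 0.185 to 0.214 in knockout cells, and Fcer1a, Ms4a2, Mcpt4, Mcpt8 and Cma1 were above background on none. Of granulocyte markers 3 were tested and 0 passed by limma, also at an unadjusted p (summed signal 82.03 to 98.64 and 70 to 88.39), and of erythroid and platelet markers 4 were tested and 1, Itga2b, was lower (-0.45, summed signal 1.813 to 1.946 and 1.709 to 1.971). Of the 8 B cell markers 5 were higher and 2 lower (4 and 1 with slide as a block). Several of the markers that differed, such as Thy1, Gzma, Itgax and Bst2, also stand in the lists described above, and the part of other cell types in these results was not tested.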

How the data were processed

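Gene expression was measured on 12 Agilent 1-colour arrays of mouse B cells, 3 in each of 4 groups taken from the sample titles. The authors deposited 1 scanner file per array, written by Agilent Feature Extraction 10.7.3.1 per the file headers, with a processed intensity per spot that is background subtracted and not normalised between arrays. Gene values that the authors deposited for the whole series, quantile normalised and on the log2 scale per the file headers, served as an alternative. Genome positions in the files are mm9, also per the submitters' processing notes.

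From the log2 of the processed intensity the array's 75th percentile over non-control spots was subtracted, an intensity of 296.3 to 355.6. Outlier spots as marked by the scanner software (122 to 196 per array) were removed, and replicate spots averaged per probe. Of 55681 probes 22940 were kept, which had 2 or more values per group and in some group rose well above background on each of the 3 arrays. The brightest kept probe stood for its gene, which gave 16498 genes, 4607 of them with more than 1 kept probe. Of 29796 probes with a RefSeq accession 28026 matched the reference annotation. Signals of dim spots are surrogates of the scanner software, which can distort their folds, hence the bounds.

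A model of the 4 groups was fitted over all 12 arrays in R 4.3.3 using limma 3.58.1 (with jsonlite 2.0.0 and, for reading files, the R package data.table, version 1.17.8), and Benjamini-Hochberg adjustment ran over genes within each contrast. On simulated data with 16498 genes the comparison with IL-4 recovered 95 of 100 changes of 1.5 and 99 of 100 of 3 on the log2 scale, with 1 false call. The simulation drew independent noise for each gene, with no slide effect and no dim-spot surrogates. It checks the code and cannot measure errors that come from slide or dim signals. Promoters came from RefSeq. Plots used Python 3.11.15 with pandas 2.3.3 and matplotlib 3.10.9.

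The members, the 35 gene lists and the rules were chosen with earlier results of these data known, and p-values over a list alone are not given. Genes were named by a rule: a short list of pathway genes, the 10 largest differences in each direction among called genes with symbols well above background on all 6 arrays and without overlap, the 5 largest bounds in each direction, up to 6 members per list by adjusted p, genes called in both conditions by the smaller difference, and called genes near Stat6. Other list members were picked after their values were seen. The immunoglobulin constant regions were named from the descriptions on the array. Alternatives covered scaling, background correction, the authors' values, filters, the choice of probe, variance settings, the arrays fitted, slide and replicate blocks and leaving out each array. Replicate numbers did not pair the samples (correlations of the same-numbered deviations -0.15, -0.0754 and -0.0329). Some genes that the naming rule covers are not reported here, while counts and medians of lists keep all members tested.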

Additional observations from a re-analysis of the deposited data

Results flagged for a closer look

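For 18 of the genes called in both conditions the genotype difference had opposite signs with and without IL-4. The difference of both contrasts was past the test in limma over all 12 arrays. Since the genes were chosen as called in both with opposite signs, that outcome largely follows from the choice and is no separate support. All values here are that difference on the log2 scale, with IL-4 minus without. For genes dim in a group they are fitted values and not bounds. Thy1 stood at -9.49, Sphk1 at -7.34, Ndrg2 at -6.09, Efna5 at -5.15, Fzd7 at -4.99, Plekhf1 at -4.52, Emilin2 at -4.32 and Fosl2 at -4.17. Tha1 stood at -3.27, Jag2 at -3.08, Vldlr at -2.74, Lonrf3 at -2.74, Socs3 at -2.59 and Gpr146 at -2.36. In the other direction Slc7a10 stood at 3.70, Ip6k3 at 3.38, Plagl1 at 3.09 and Crybb1 at 2.25. The first 14 were lower in knockout cells with IL-4 and higher without it, and the last 4 the reverse. With 3 arrays per group, single arrays were not tested as outliers.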

How the results depend on the processing

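The 1597 genes called with IL-4 (764 higher, 833 lower) became 884 (378 and 506) with normexp background correction, 914 (383 and 531) on the authors' deposited gene values, 965 (454 and 511) among genes well above background on all arrays, and 8431 (4919 and 3512) with no fold minimum. The 194 genes called without IL-4 became 100 with normexp, 105 on the authors' values, 83 with no filter on dim probes, 126 among genes well above background on all arrays, 1929 with no fold minimum and 81 with slide as a block. Of these, 71.1% were higher in knockout cells, against 39.5% with slide as a block, 47.2% when arrays were scaled by their median, 60.1% after quantile normalisation, 49.4% with no filter on dim probes, 84.0% with normexp, 81.9% on the authors' values, 81.7% among genes well above background on all arrays and 40.4% with no fold minimum. Leaving out 1 array gave shares of 43.8% (without wild-type control 3), 45.9% (without wild-type control 2), 48.7% (without knockout control 2), 56.7% (without wild-type control 1) and 72.8% (without knockout control 1). Without knockout control 3 the share was 39.5%, which for this contrast is the same result as with slide as a block. The balance without IL-4 thus has no settled direction. Median scaling moved the median of all genes without IL-4 from -0.04 to -0.23. The 1756 genes of the difference became 1034, 1053, 1161 and 7388 under the same first 4 alternatives. Leaving out 1 array gave 1580 to 1640 genes with IL-4 (755 to 803 higher, 825 to 864 lower), 1652 to 1927 for the difference and 73 to 305 without IL-4, the last being without knockout control 1 (305) or wild-type control 3 (73). Without knockout control 2 that count was 78, without knockout control 3 it was 81, and without wild-type controls 1 and 2 in turn it was 97 and 85. The replicate block, tried although the numbers do not pair the samples, gave 1595 genes with IL-4, 189 without and 1747 for the difference. Among genes past the test in the main fit, signs reversed for Cox4i1 on the authors' values (-0.00504) and for Ccr9 with normexp (0.0289) and on the authors' values (0.24). Cd3g, Csf1r, Elane, Epor, Pf4, Prf1 and Prg2, which did not pass, also took both signs, and Csf1r passed with slide as a block (-0.86, adjusted p = 0.0130). List medians turned with slide as a block for the BCL2 family (-0.0715), chemokines (-0.02), D-type cyclins and CDK inhibitors (-0.05), glycolysis and hypoxia (-0.02) and G protein signalling (0.02). The median of the BCL2 family also turned with quantile, median and random-block settings and without knockout IL-4 array 3, that of G protein signalling with the mean of all probes (0.10), and that of MHC class I on the authors' values (-0.00573). Medians of JAK-STAT signalling (-0.0068) and of lineage transcription factors (-0.02) took both signs when 1 IL-4 array was left out. Of 224 named genes 196 kept their direction and their side of the adjusted p of 0.05 under every alternative run, whatever the size of the difference. Called genes among them could fall under a difference of 1 in size, such as Srgap1 (down to 0.49) and Cdkn1c (-0.31). Causes of these changes were not tested. Dim signals limit the folds, as the bounds state.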

Other observations

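The genes that varied most among the 3 knockout IL-4 arrays often set array 3 apart from arrays 1 and 2. Egln3 read -4.01, -3.18 and -0.66 on arrays 1, 2 and 3, Ankrd37 read 2.02, 3.18 and 5.04, and Cox7a1 read -1.47, -0.96 and 1.27. Ndrg2 read -3.31, -2.82 and -0.80. Hfe and Gpr31b had array 1 as the high one, at -2.25, -4.53 and -4.70 and at -2.56, -4.25 and -5.26.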
